A study of Mus musculus with 35 samples.

Results

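Zbtb16 encodes PLZF, a transcription factor with a BTB domain and a row of zinc fingers that is best known in lymphocytes as the factor of innate-like T cells. The gene was taken from a table of RNA-seq read counts by its Ensembl identifier, ENSMUSG00000066687. It is 1 of 52636 genes in that table and 1 of the 10296 with enough reads to be tested. The contrast that picked it out is not given. Thymic KO against WT was taken to be that contrast, so its thymic levels are given here as a description, with no test. Its naive and memory levels are tested below. The gene was proposed with results of these same data known, and those may include the naive contrast. These tests are therefore not independent evidence.

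The libraries came from CD8 T cells purified by flow cytometry from C57BL/6 mice in which Dot1l, the gene of a histone H3 lysine methyltransferase, could be deleted by Cre. The genotypes, as the labels spell them, were Lcre+/-;Dot1Lwt/wt (WT), Lcre+/-;Dot1Lfl/wt (Het) and Lcre+/-;Dot1Lfl/fl (KO), so all 3 carried the Cre transgene and no library here came from mice without it. Each genotype was sampled as CD8 single positive (SP) thymocytes, as naive spleen cells (CD44- CD62L+) and as memory spleen cells (CD44+ CD62L+). This gave 35 libraries in 9 groups of 4, except for WT thymus with 3. The labels give neither the promoter of the transgene nor the age of the mice, and they do not say that each library came from its own animal, so the tests measure only how far these libraries spread, which may be technical. The published study used Lck-Cre, which is active in T lineage cells from an early thymic stage.

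PLZF is switched on in thymic precursors of invariant natural killer T cells, MAIT cells and a part of the gamma delta T cells, after strong receptor signals and contacts through SLAM family receptors. There it drives an effector programme before any infection has been met. Conventional CD8 T cells keep the gene nearly silent, and enforced PLZF gives conventional T cells features of memory or effector cells. PLZF-expressing cells that make IL-4 can also push neighbouring CD8 thymocytes into an innate memory state marked by Eomes.

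Zbtb16 lies on the minus strand of mouse chromosome 9, from 48654297 to 48836222 in GRCm38, and spans 181926 bp. GENCODE M21 gives it 2 transcripts with 8 separate exon blocks and 5283 bases of exon in all. No other gene of GENCODE M21 overlaps its body. The annotation and the strand setting behind the counts are not given, and a part of other transcripts in its reads was not tested. Positions are from GENCODE M21, since the count table holds identifiers only.

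Total counts per library ranged from 4809509 to 16879636, with a median of 10406516. Zbtb16 drew few of them, 824 reads over the 35 libraries. Of these reads, 735 (89.2%) came from the 8 KO libraries of thymus and naive spleen, and the other 27 libraries held 0 to 12 each. Levels are given as CPM, the usual counts scaled by library size, here with TMM scaling. In those 27 libraries the highest level was 1.09 CPM, 4 libraries had no read and 17 had at most 3. Per-library intervals are 95% exact Poisson intervals and cover counting error only. In bulk libraries, fewer cells that hold a transcript and less of it per cell cannot be told apart.

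The Dot1l level itself did not mark the KO libraries. It ran from 74.9 to 78.8 CPM in KO thymus against 61.1 to 70.4 in WT, from 54.0 to 57.1 against 47.2 to 51.6 in naive cells, and from 43.8 to 48.4 against 38.4 to 52.5 in memory cells. edgeR's quasi-likelihood test gave log2 fold changes of 0.20 ± 0.08 (SE, adjusted p = 0.0891), 0.17 ± 0.08 (adjusted p = 0.163) and 0.01 ± 0.08 (adjusted p = 0.961). A count over the whole gene cannot show the loss of some of its exons, so it does not check the deletion, and KO here means the libraries labelled so.

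In CD8 SP thymocytes, Zbtb16 was near the floor in WT and Het libraries and well above it in all 4 KO libraries. The 3 WT libraries held 8, 4 and 1 reads, which is 1.07, 0.232 and 0.0862 CPM. The 4 Het libraries held 11, 5, 1 and 4 reads, or 1.09, 0.347, 0.0971 and 0.350 CPM. The 4 KO libraries held 23, 96, 152 and 68 reads, or 3.17, 8.19, 10.4 and 5.42 CPM. KO replicate 3 was the highest and KO replicate 1 the lowest, and no KO library overlapped a WT or Het library, while WT and Het libraries overlapped each other.

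The thymic mean was 6.80 ± 3.18 CPM in KO (SD, n = 4), 0.461 ± 0.528 in WT (n = 3) and 0.471 ± 0.429 in Het (n = 4). KO replicate 1 (95% interval 2.01 to 4.75) and KO replicate 3 (8.84 to 12.2) differed by more than counting error. As a description, the log2 fold change was 4.18 for KO against WT and 0.29 for Het against WT, 2 comparisons that share the WT libraries, and 3.89 for KO against Het. WT replicate 1 held 8 of the 13 reads of its group, and without it the KO against WT value was 5.24.

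**Figure D1:**
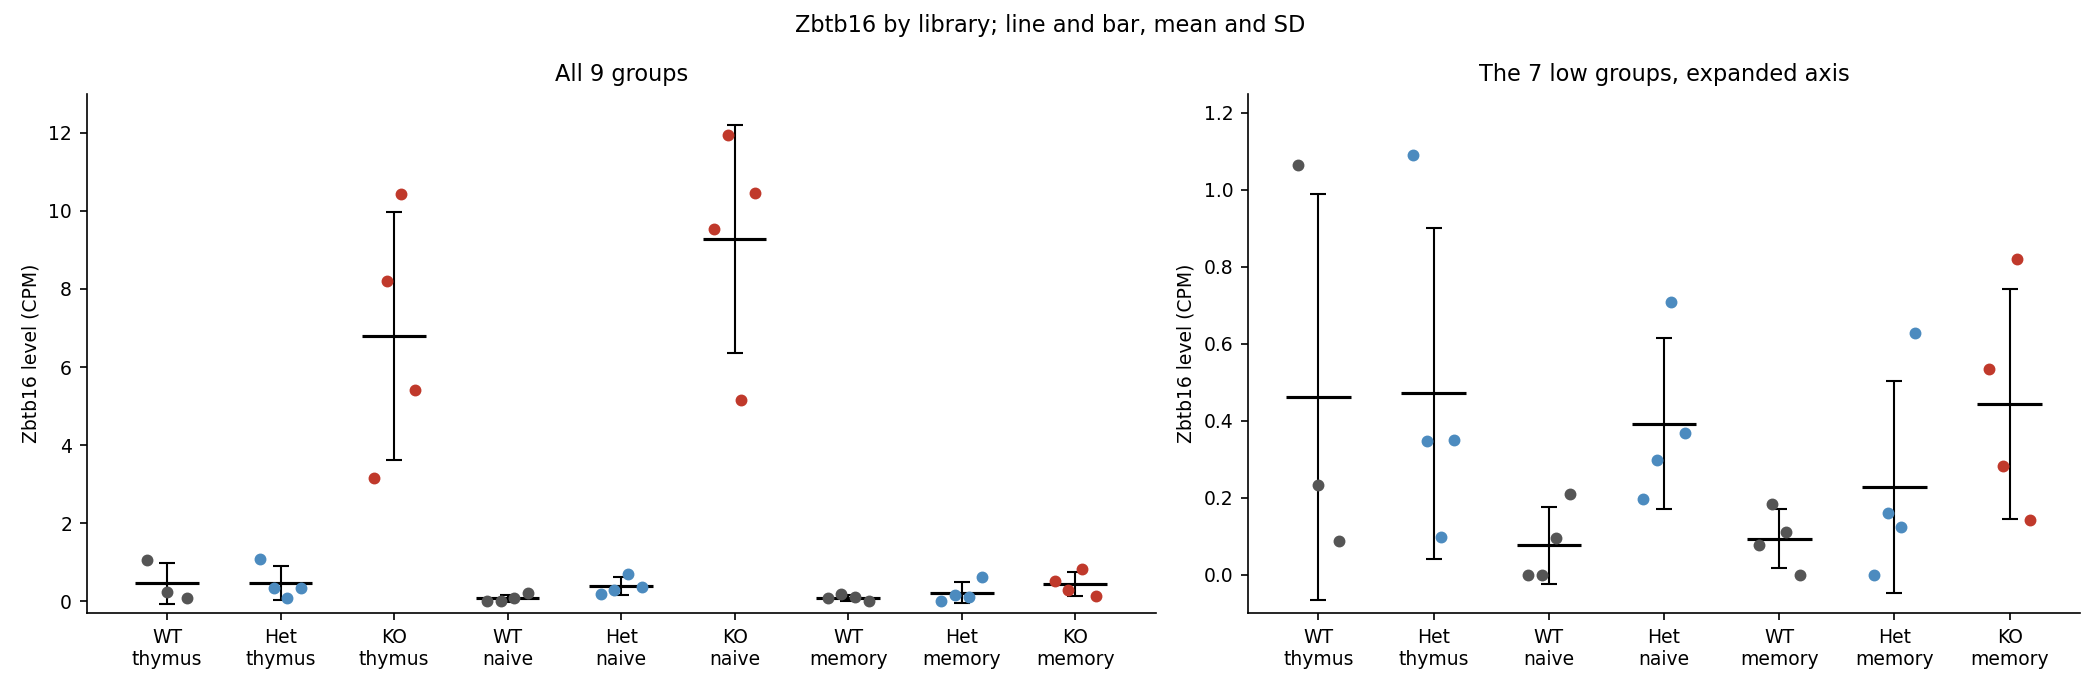
Zbtb16 level in CPM (linear vertical axis) in each of the 35 libraries, by genotype and subset; each point is a library, the line is the group mean and the bar the SD, and the right panel repeats the 7 low groups on an expanded axis. KO thymus (3.17 to 10.4) and KO naive (5.16 to 11.9) stand apart from every other group, while KO memory (0.141 to 0.820) lies in the range of the low groups.

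Naive KO cells held the highest Zbtb16 level of the 9 groups. The 4 WT naive libraries had 0, 0, 1 and 2 reads, which is 0, 0, 0.0947 and 0.209 CPM. For the 2 libraries without a read the 95% counting interval reached up to 0.799 and 0.471 CPM. The 4 Het libraries had 2, 3, 6 and 4 reads, or 0.196, 0.297, 0.709 and 0.368 CPM. The 4 KO libraries had 113, 109, 48 and 126 reads, or 9.54, 11.9, 5.16 and 10.4 CPM. All KO libraries lay above all WT and Het libraries, and KO replicate 3 lay below the other KO libraries.

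Zbtb16 rose in naive KO cells, to 9.27 ± 2.91 CPM (SD, n = 4) from 0.0760 ± 0.0995 in WT (n = 4) and 0.393 ± 0.222 in Het (n = 4). The log2 fold change of KO against WT was 6.49 ± 0.67 (SE, adjusted p = 2.99e-09, edgeR), higher in 4 of 4 libraries. The size is loosely fixed, since WT held 3 reads in all: the ratio of pooled rates was 101, with a 95% counting interval of 34.5 to 494. Against Het, which held more reads, the log2 fold change was 4.57 ± 0.51 (adjusted p = 1.51e-08) and the ratio 24.7 (14.8 to 44.5), where 10.5% of all genes were called higher. Over 17 other settings per comparison, adjusted p stayed between 9.13e-10 and 1.88e-07 against WT and between 5.12e-10 and 5.61e-07 against Het. For each comparison, a two-sided exact permutation test of the library levels gave p = 0.0286, the smallest that 4 against 4 libraries allow, and 0.0952 after adjustment over 10 comparisons of this gene.

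Of all genes tested, 11.1% were called higher and 7.11% lower in naive KO against WT cells at an adjusted p under 0.05. Het naive libraries had more reads than WT in the mean, but the ranges overlapped and the test gave 1.92 ± 1.10 (adjusted p = 1; unadjusted p = 0.0887, edgeR). The ratio of pooled rates for Het against WT was 4.11, with a counting interval of 1.16 to 22.2. That interval leaves out the spread between libraries, and with it the difference did not pass the test.

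KO naive replicate 3 stood apart from the other KO naive libraries in more than Zbtb16. Its Cd44 level was 17.95 CPM against 5.49 to 6.30 in the other 3, while WT memory libraries lay at 25.0 to 31.4. Its Tbx21 level was 126 CPM against 47.3 to 69.0, and its Ccl5 level 452 against 127 to 190. Its level of Xist, the mark of a female mouse, was 31.1 CPM against at most 0.0844 in the other 3. Without it the KO naive mean was 10.6 ± 1.21 CPM (SD, n = 3). The part of these differences in the low Zbtb16 value was not tested.

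Libraries of one group differed in the sex of the mouse. Transcripts of Xist and of the Y chromosome marked 24 libraries as male and 11 as female. In thymus the only female KO library had the highest Zbtb16 level of its group (10.4 CPM) against 0.232 in the only female WT library. In naive cells the female KO library (5.16) stood against female WT libraries at 0 and 0.0947. With sex as a covariate the naive KO against WT value was 6.52 ± 0.69.

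Memory KO cells did not share the naive level. The 4 WT memory libraries had 1, 2, 1 and 0 reads (0.0777, 0.185, 0.110 and 0 CPM). For the library without a read the 95% counting interval reached up to 0.331 CPM. The 4 Het libraries had 0, 1, 1 and 6 reads (0, 0.160, 0.123 and 0.627 CPM), where the interval of the library without a read reached up to 0.328 CPM. The 4 KO libraries had 9, 3, 12 and 1 reads (0.535, 0.281, 0.820 and 0.141 CPM). KO replicates 1, 2 and 3 exceeded every WT library, KO replicate 4 lay within the WT range, and Het replicate 4 lay above 3 of the 4 KO libraries.

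Group means in memory were 0.444 ± 0.299 CPM in KO, 0.227 ± 0.275 in Het and 0.0930 ± 0.0765 in WT (SD, n = 4 each). KO against WT gave a log2 fold change of 2.30 ± 0.92 that did not pass the test (adjusted p = 0.0718, edgeR), and it passed in 0 of 16 other settings, where adjusted p ran from 0.0579 to 0.247. The ratio of pooled rates was 5.58, with a counting interval of 1.93 to 22.1 that covers counting error only and not the spread between libraries. KO against Het gave 1.08 ± 0.81 (adjusted p = 0.406), and Het against WT 1.22 ± 1.14 (adjusted p = 1). Het replicate 4 held 6 of the 8 reads of its group, and without it KO against Het was 2.48 (adjusted p = 0.116) and Het against WT -0.19 (adjusted p = 0.993). Without Het replicate 1 KO against Het was 0.57. These sizes are loosely fixed, with 4 reads over the 4 WT libraries.

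Within KO mice, Zbtb16 fell from naive to memory spleen cells by 4.19 ± 0.47 on the log2 scale (adjusted p = 2.19e-08, edgeR), lower in 4 of 4 libraries. The ratio of pooled rates, memory over naive, was 0.0543 (0.0347 to 0.0814). Of all genes, 8.61% were called lower in this contrast. The exact permutation p was 0.0286, the smallest possible, and 0.0952 after adjustment over 10 comparisons of this gene, which did not pass. The adjusted p of the fitted models stayed between 1.36e-09 and 2.30e-06 over 17 other settings. The same contrast was -0.01 ± 1.26 in WT (adjusted p = 0.999) and -0.71 ± 0.89 in Het libraries (adjusted p = 0.666), where both subsets were near the floor. The Het value was -2.11 without Het memory replicate 4 and -0.20 without Het memory replicate 1.

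The difference between the memory and the naive response was tested as an interaction. KO against WT in memory minus KO against WT in naive cells gave -4.19 ± 1.74 (unadjusted p = 0.0219, adjusted p = 0.361, edgeR), which did not pass. It did not pass under 25 other settings either, with adjusted p from 0.0705 to 0.767. The WT spleen groups behind it held 3 and 4 reads. With Het libraries as the reference, chosen after seeing the data, the value was -3.48 ± 1.18 (adjusted p = 0.167), and with the mean of WT and Het, also chosen then, -3.83 ± 1.12 (adjusted p = 0.0514). Over all genes 1.79% passed this test.

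From thymus to naive spleen, KO means of 6.80 and 9.27 CPM had overlapping libraries, with a log2 difference of 0.42 given as a description. In WT libraries the described value was -1.89, also with overlapping ranges. Het libraries gave -0.26 ± 0.73 (adjusted p = 0.820, edgeR).

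In order of their means, the groups ran from KO naive and KO thymus down through Het thymus (0.471), WT thymus (0.461), KO memory (0.444), Het naive (0.393), Het memory (0.227) and WT memory (0.0930) to WT naive (0.0760). Only 1 step in this order, from KO thymus to Het thymus, separated neighbours whose library values did not overlap.

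The BTB and zinc finger family, to which PLZF belongs, holds several factors that fix T cell lineages. Levels of different genes are compared here per length, as RPKM from summed exon length. Among 50 such genes Zbtb16 ranked 39th in WT and in Het thymus but 32nd in KO thymus, at 1.29 RPKM against a family median of 2.16. It ranked 46th in WT and 44th in Het naive cells and 29th in KO naive cells, at 1.75 RPKM against a median of 2.33. In memory cells it ranked 45th in WT and Het and 42nd in KO, at 0.0841 RPKM. Even at its highest Zbtb16 was thus below the family median.

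**Figure D2:**
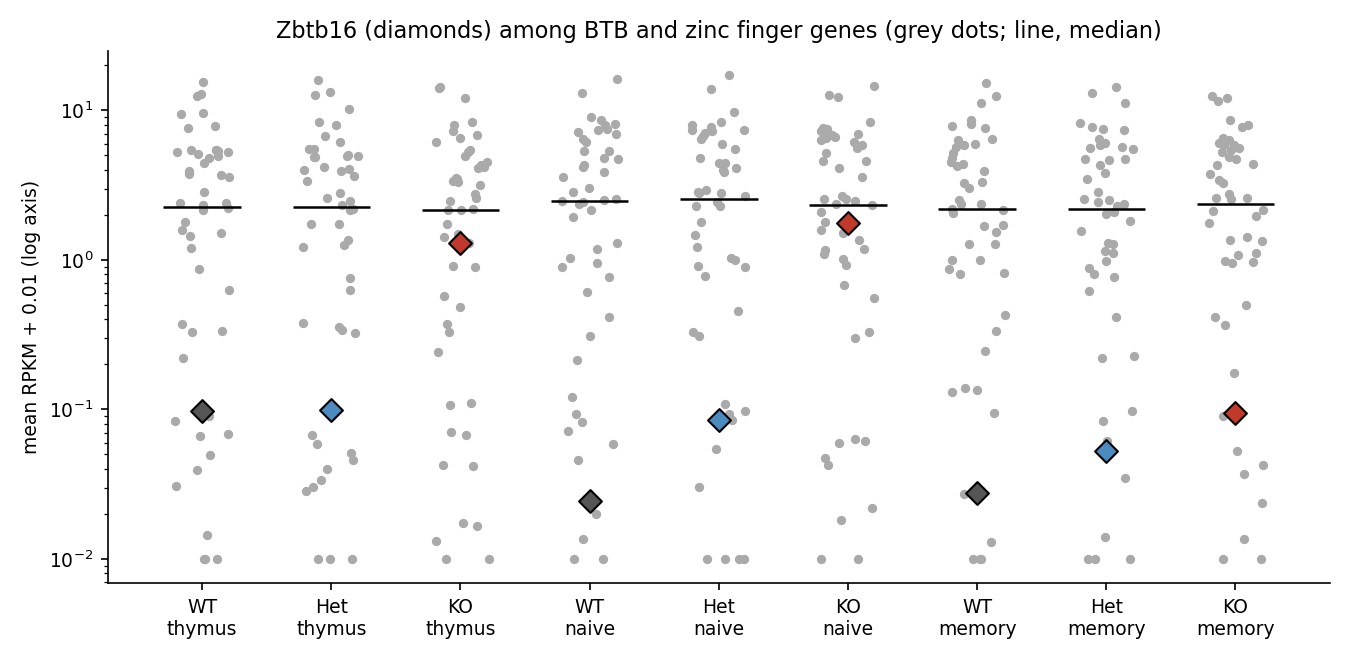
Mean level per group of Zbtb16 (diamonds) and of 49 other BTB and zinc finger genes (grey dots), as RPKM plus 0.01 on a log axis, with the line at the median of the 50 genes. The diamond sits among the lowest genes in 7 groups and moves close to the family median in KO thymus (1.29) and KO naive cells (1.75).

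Of the 49 relatives, 41 were tested. In thymus 1 was called higher and 3 lower, where 11.9% of all genes were higher and 6.77% lower. In naive cells 5 (12.2%) were higher and 3 (7.32%) lower, against 11.1% and 7.11% of all genes. In memory cells 6 (14.6%) were higher and 3 (7.32%) lower, against 12.8% and 9.32%. Family medians of -0.06, 0.05 and 0.02 lay near the medians of all genes, 0.02, 0.00 and 0.01. The 1 higher member in thymus was lost without any 1 library other than KO replicates 1 and 3. The counts of lower members were not firm: 3 in naive cells became 1 without KO replicate 1, KO replicate 2 or WT replicate 4, and 3 in memory cells became 5 without KO replicate 4 or WT replicate 1. Centring each library on its mean log level, which moves the median of all genes by about -0.1 (-0.10 in thymus and -0.11 in both spleen subsets), gave 10, 6 and 9 lower members.

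Zbtb7b, which encodes ThPOK, the factor that fixes the CD4 lineage and is also on in natural killer T cells, rose in naive KO cells by 3.19 ± 0.70 on the log2 scale (adjusted p = 0.00120) and in memory KO cells by 1.71 ± 0.40 (adjusted p = 0.00195). Its 4 naive KO libraries were at 2.03, 0.548, 8.39 and 3.98 CPM against 0 to 0.663 in WT, so that KO replicate 2 lay in the WT range and KO replicate 3 was the highest. In memory cells KO ran from 13.4 to 24.8 CPM and WT from 4.89 to 5.92, with no overlap. In thymus all groups were at 0 to 0.694 CPM. Unlike Zbtb16, Zbtb7b was higher in memory than in naive KO cells (2.29 ± 0.42, adjusted p = 0.000179).

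Bcl6, a repressor of the same family, rose in naive and memory KO cells (0.62 ± 0.13 and 0.75 ± 0.13), and Hic1, a repressor with roles in tissue T cells, rose in memory cells by 1.60 ± 0.36. Zbtb20 fell in thymus by 0.99 ± 0.11 and in naive cells by 0.59 ± 0.10. Zbtb32, which encodes a partner of GATA3, held 45 reads over all libraries and was not tested.

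The receptor signals and factors known to switch Zbtb16 on or to hold it off were taken as a list of 25 genes, of which 23 were tested. No member was called higher in thymus KO cells (0 by edgeR, 1 at an unadjusted p under 0.05, and 1 called by DESeq2), against 11.9% of all genes. There 7 (30.4%) were called lower, against 6.77% of all genes. In naive KO cells 7 (30.4%) were called higher, against 11.1% of all genes, and 1 (4.35%) lower, against 7.11%. In memory KO cells 6 (26.1%) were called higher, against 12.8% of all genes, and 7 (30.4%) lower, against 9.32%. The list medians were -0.19, -0.01 and -0.07 on the log2 scale. The list holds factors that act in opposite directions on Zbtb16, so its count gives no direction for the gene. With centring the 1 lower member in naive cells became 5, and without WT replicate 2 or KO replicate 2 it became 2. Without KO replicate 3 or 4 of thymus, 1 member was called higher there.

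Egr2, the factor that binds the Zbtb16 gene after receptor signals in natural killer T precursors, fell in thymus KO cells rather than rose. Its WT thymus libraries were at 144, 115 and 162 CPM and its KO libraries at 90.2, 96.3, 75.5 and 88.3, with no overlap and a log2 fold change of -0.68 ± 0.23 (adjusted p = 0.0361). The call was lost without WT replicate 1 or 3 or KO replicate 1, 3 or 4, with values from -0.69 to -0.57 and adjusted p up to 0.158. In naive cells KO (33.1 ± 8.49 CPM, n = 4) and WT (47.7 ± 8.56, n = 4) gave -0.53 ± 0.23, which did not pass (adjusted p = 0.121). In memory cells Egr2 fell by 1.08 ± 0.25 (adjusted p = 0.00145). Egr3, a relative with a like role, fell in memory cells by 1.41 ± 0.24.

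Slamf6 and Sh2d1a encode a receptor and the adaptor SAP of the contact signal that natural killer T precursors need. In thymus Slamf6 was at 4.61 to 5.15 CPM in KO and 4.05 to 5.99 in WT libraries, a log2 difference of 0.02 ± 0.19 (adjusted p = 0.974). It rose in naive KO cells (0.63 ± 0.16, adjusted p = 0.00276), to 11.5 to 14.2 CPM from 5.85 to 10.1, and in memory KO cells (0.75 ± 0.16, adjusted p = 0.000325). Sh2d1a rose in naive cells by 0.64 ± 0.17 (adjusted p = 0.00467), where KO replicate 3 was the highest at 22.7 CPM, and in memory cells by 0.99 ± 0.15. Without that KO replicate 3 the naive value was 0.36 (adjusted p = 0.104). In thymus Sh2d1a was at 5.51 to 7.73 CPM in KO against 8.02 to 9.85 in WT, which did not pass (-0.49 ± 0.19, adjusted p = 0.0632). Slamf1, the other receptor of this signal, held 86 reads over all libraries and was not tested.

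Id2 and Id3, inhibitors of E proteins that limit or shape the innate-like lineages, changed in opposite directions in memory KO cells. Id2 rose there by 2.28 ± 0.17, to 422 to 562 CPM from 83.9 to 113 in WT, and it was at 140 to 171 CPM in naive KO against 105 to 187 in naive WT cells. Id3 fell in memory KO cells by 1.00 ± 0.20 (adjusted p = 0.000430) and rose in naive KO cells by 0.60 ± 0.20 (adjusted p = 0.0385). The naive call was lost without any 1 of WT replicates 1, 2 and 3 or KO replicates 1, 2 and 4, with adjusted p up to 0.155. For both genes the naive and memory responses differed by the interaction test, by 2.14 ± 0.24 for Id2 (adjusted p = 3.53e-06) and by -1.60 ± 0.29 for Id3 (adjusted p = 0.00144).

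Runx1 and Ets1, factors needed early in the natural killer T lineage, fell in thymus (-0.63 ± 0.14 and -0.44 ± 0.07). Myb, needed for the survival of the precursors, rose in naive KO cells (1.51 ± 0.19), to 302 ± 29.7 CPM from 106 ± 29.3 in WT (SD, n = 4 each), and in memory KO cells (1.02 ± 0.19). Gata3 rose in naive cells by 0.63 ± 0.09. Ezh2, the methyltransferase of the Polycomb complex that limits PLZF-positive cells, fell in naive cells by 0.54 ± 0.12 (adjusted p = 0.000967) and in memory cells by 0.38 ± 0.12 (adjusted p = 0.0142), with a thymic difference of 0.23 ± 0.12 that did not pass (adjusted p = 0.202). The memory call was lost without WT replicate 4 or KO replicate 1 (adjusted p up to 0.0558). Kdm6b, a demethylase of the opposing reaction, fell in thymus (-0.44 ± 0.10) and rose in naive cells (0.57 ± 0.10).

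**Figure D3:**
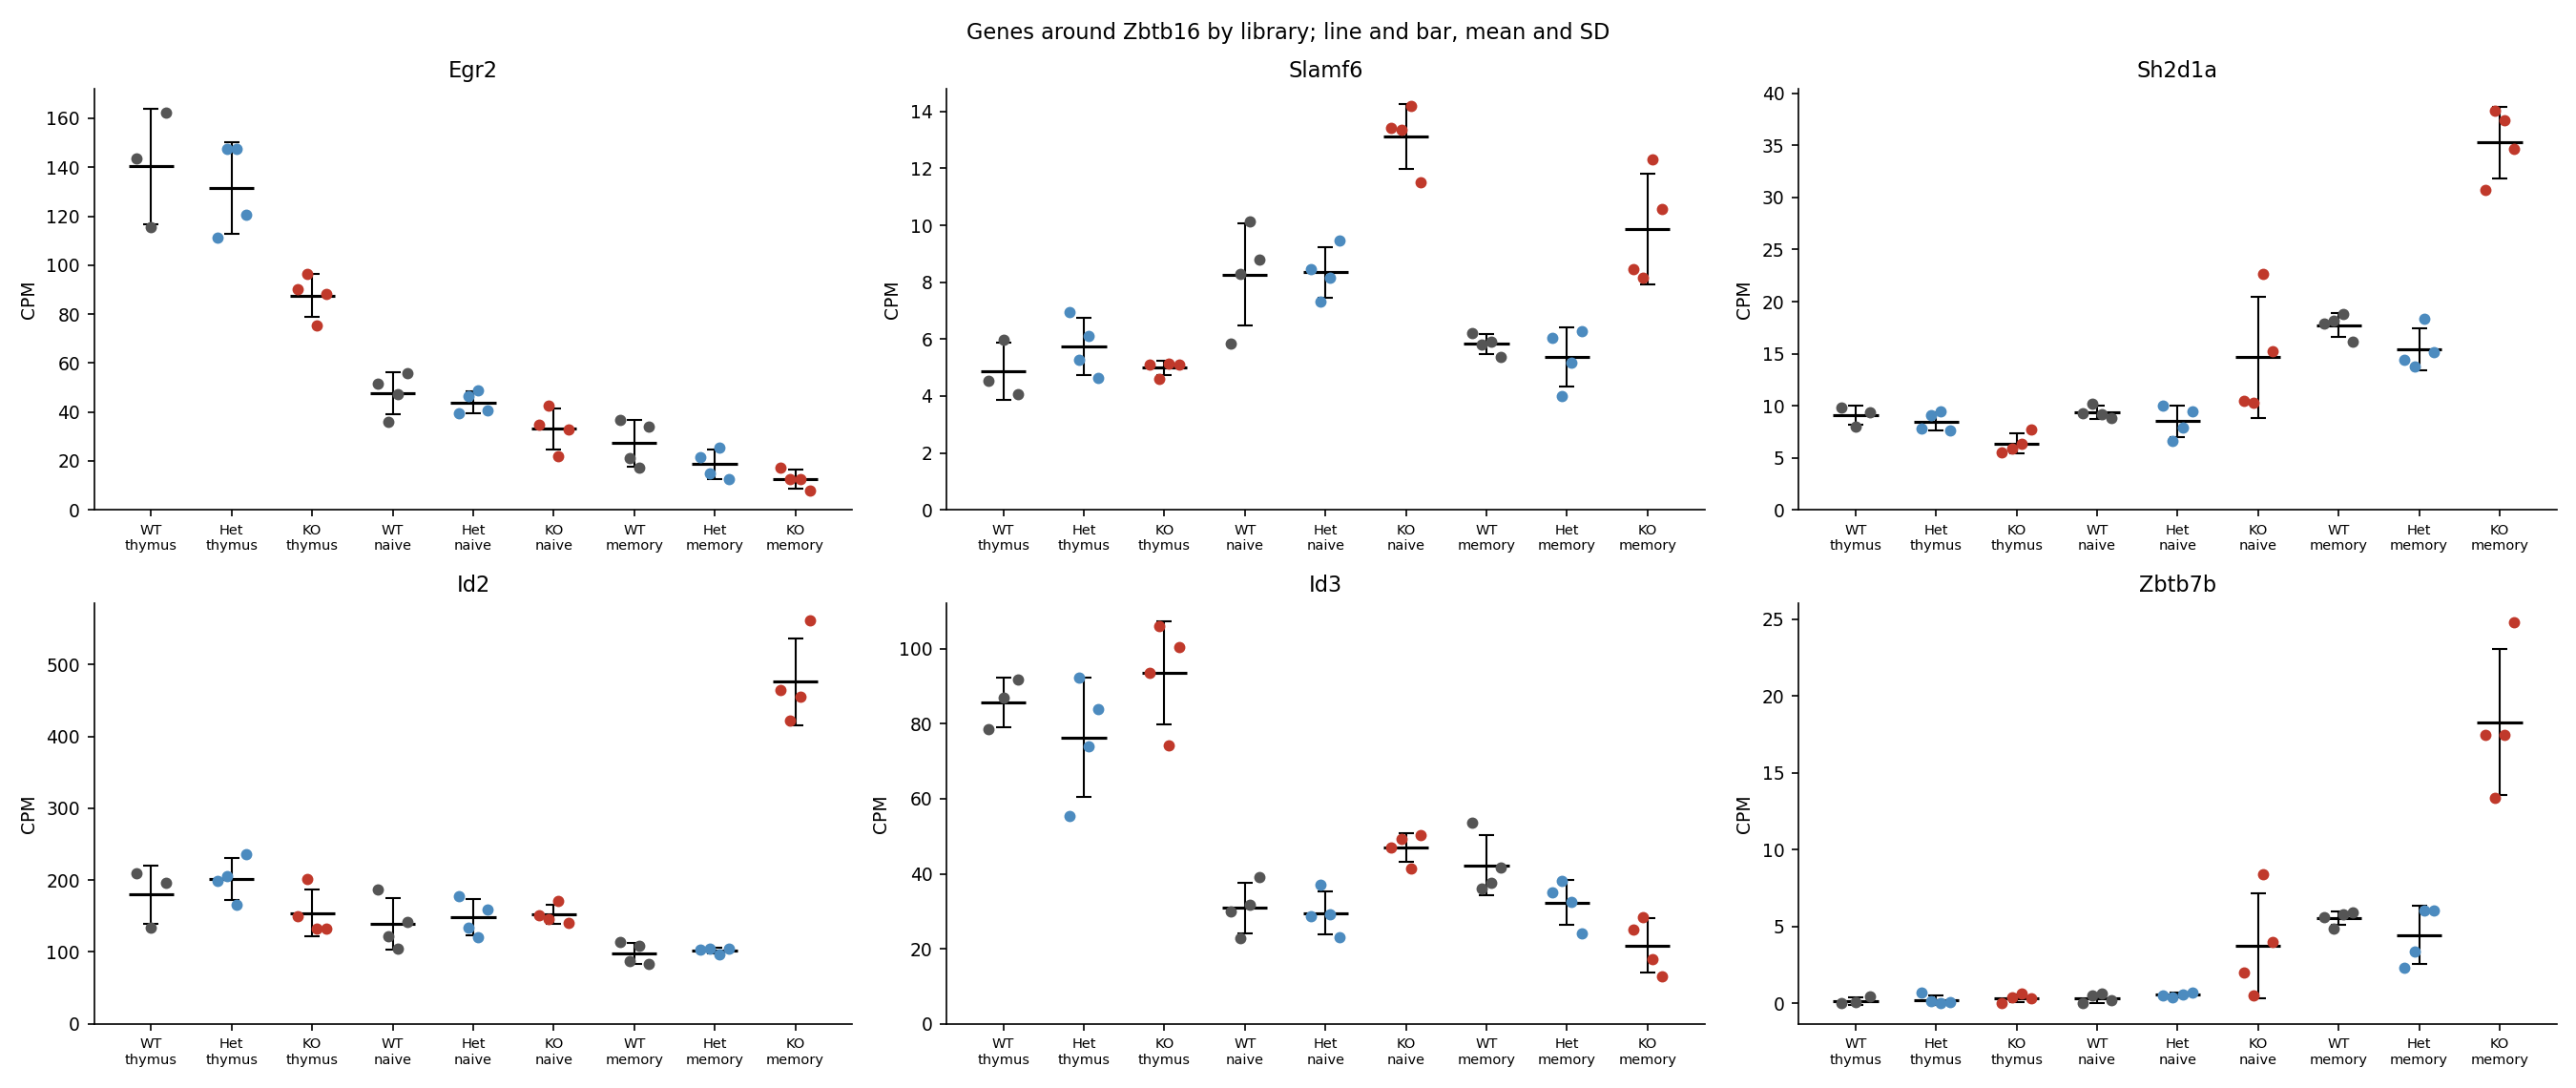
Level in CPM (linear axes, one scale per gene) of Egr2, Slamf6, Sh2d1a, Id2, Id3 and Zbtb7b in each library by genotype and subset, with the group mean (line) and SD (bar). Egr2 is lower in KO than in WT thymus without overlap, and Id2 and Zbtb7b are highest in KO memory cells, where Zbtb16 was low.

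Proteins reported to bind PLZF, mostly corepressors, histone deacetylases and the ubiquitin ligase subunit Cul3, were a list of 19 genes, all tested. In thymus 2 (10.5%) were higher and 2 (10.5%) lower, in naive cells 1 (5.26%) and 1 (5.26%), and in memory cells 1 (5.26%) and 5 (26.3%). The shares of all genes in these subsets were 11.9%, 11.1% and 12.8% higher and 6.77%, 7.11% and 9.32% lower. List medians were -0.02, 0.00 and 0.04. The 5 lower members in memory cells became 3 without KO replicate 1 or 2, and the 1 higher member became 2 without WT replicate 1. In thymus the 2 higher members became 0 without KO replicate 2, WT replicate 2 or WT replicate 3 and 1 without any other library, and the 2 lower members became 4 without KO replicate 2 and 6 with centring. Hdac3 was called higher in all 3 subsets, by 0.20 ± 0.07 (thymus), 0.26 ± 0.06 (naive) and 0.25 ± 0.06 (memory), but these calls were lost with centring, and the thymic one also without any 1 library other than KO replicates 1 and 4. Bach2, a repressor of effector genes, fell in all 3 subsets (-0.96 ± 0.15, -0.62 ± 0.14 and -0.44 ± 0.14). Its memory call was lost without WT replicate 1 or KO replicate 1 or 2 (adjusted p up to 0.115).

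Genes that are high in PLZF-expressing innate-like T cells made a list of 51, of which 30 were tested. The other 21 had too few reads, among them Icos with 73 reads and Il4 with 0 over all libraries, so the count covers the 30 only. In thymus KO cells 12 of 30 were called higher and 1 lower, against 11.9% and 6.77% of all genes. In naive KO cells 16 (53.3%) were higher and 1 lower, against 11.1% and 7.11%, and in memory KO cells 15 of 30 were higher and 2 lower, against 12.8% and 9.32%. The list medians were 0.81, 1.04 and 0.48 on the log2 scale, where the medians of all genes were 0.02, 0.00 and 0.01. Tested members were chosen by read count, and a gene that passes through KO libraries alone had to differ, so these counts are a description. The 1 lower member in thymus became 0 without WT replicate 1 or any 1 KO library, and the 2 in memory cells became 1 without KO replicate 1 or 4 or WT replicate 1, 2 or 4.

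Maf, a factor of natural killer T and gamma delta subsets, rose in thymus by 2.57 ± 0.38, in naive cells by 2.96 ± 0.38 and in memory cells by 2.71 ± 0.33. Its KO means were 16.6 ± 3.82, 15.7 ± 3.99 and 22.7 ± 2.53 CPM against WT means of 2.73 ± 0.658 (n = 3), 1.87 ± 1.15 and 3.49 ± 1.87 (SD, n = 4 otherwise). Maf thus rose in the subset in which Zbtb16 was low as well as in those in which it was high. Tbx21, which encodes T-bet, rose in thymus by 2.85 ± 0.40 and in naive cells by 2.22 ± 0.26.

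S100a6 rose in thymus by 3.90 ± 0.44 and in naive cells by 3.80 ± 0.40, from 1.81 ± 0.969 and 2.16 ± 2.50 CPM in WT to 30.0 ± 4.70 and 35.05 ± 10.8 in KO. In memory cells it was at 40.4 ± 12.8 CPM in WT and 97.4 ± 11.7 in KO. S100a4 rose in thymus by 3.87 ± 0.54, in naive cells by 3.35 ± 0.61 and in memory cells by 1.71 ± 0.37. Itgb3, the integrin beta chain, rose in naive (1.64 ± 0.15) and memory cells (1.96 ± 0.14). Rora, an innate lymphoid and T cell factor, rose in naive (1.07 ± 0.19) and memory cells (1.76 ± 0.19). The surface receptor gene Cd160 rose in thymus by 1.22 ± 0.23, in naive cells by 1.45 ± 0.22 and in memory cells by 1.74 ± 0.20. Many of these genes also mark conventional memory cells: 16 of the 30 were called higher in WT memory against WT naive libraries (53.3% against 7.68% of all genes). The list therefore does not separate innate-like from memory features.

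Genes that PLZF-expressing cells hold lower than conventional naive cells were a list of 20, with 19 tested. In thymus 9 (47.4%) were lower and 2 higher, in naive cells 8 (42.1%) and 2, and in memory cells 9 (47.4%) and 1. Of all genes, 6.77%, 7.11% and 9.32% were lower and 11.9%, 11.1% and 12.8% higher in these subsets. The medians were -0.34, -0.30 and -0.42. Satb1, a chromatin organiser of thymocytes, fell by 0.90 ± 0.06, 0.34 ± 0.05 and 0.42 ± 0.05 in thymus, naive and memory cells. Lef1, a factor of naive cells, fell by 0.62 ± 0.08, 0.72 ± 0.07 and 0.62 ± 0.07. Igfbp4 fell in naive cells by 2.21 ± 0.22, to 16.4 ± 4.91 CPM from 76.7 ± 7.09 in WT (SD, n = 4 each). In memory cells it fell by 2.37 ± 0.32. WT memory against WT naive libraries had 11 of the 19 lower, where 7.38% of all genes were lower. The 2 higher members in thymus became 0 without KO replicate 1, WT replicate 2 or WT replicate 3 and 1 without KO replicate 2, and the 1 in memory cells became 0 without WT replicate 2, 3 or 4 or KO replicate 1 or 2.

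Innate memory CD8 T cells, which arise beside IL-4 producing PLZF-positive cells, were covered by 20 genes, of which 13 were tested and several stand in the list of innate-like genes too. In thymus 5 (38.5%) were called higher, in naive cells 6 (46.2%) and in memory cells 4 (30.8%), with 1 lower in memory cells. Of all genes, 11.9%, 11.1% and 12.8% were higher, and 9.32% were lower in memory cells. In thymus and naive cells 0 were called lower by edgeR with TMM scaling or by DESeq2, and 0 were lower at an unadjusted p under 0.05, while centring gave 1 lower in each. The medians were 0.62, 0.89 and 0.24. In WT memory against WT naive libraries 7 of the 13 (53.8%) were higher and 2 (15.4%) lower, against 7.68% and 7.38% of all genes. This list too does not separate innate memory from conventional memory features. The 5 in thymus became 3 without KO replicate 2, KO replicate 3, WT replicate 2 or WT replicate 3, and the 4 in memory cells became 2 without KO replicate 4 and with centring. The 1 lower member in memory cells became 0 without WT replicate 3 or 4 or KO replicate 2 or 3.

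Eomes rose in all 3 subsets, by 2.29 ± 0.21 (thymus), 1.28 ± 0.17 (naive) and 0.80 ± 0.16 (memory). Its thymic KO libraries lay at 38.3 to 54.9 CPM and the WT ones at 6.63 to 11.3. The chemokine gene Ccl5 rose by 2.25 ± 0.69, 3.81 ± 0.49 and 1.54 ± 0.41. Its thymic call was lost without WT replicate 2 or 3 or KO replicate 2 or 3 (adjusted p up to 0.111). The thymic KO libraries split into 4.68 and 4.62 CPM for replicates 1 and 4 and 24.5 and 23.4 for replicates 2 and 3. Those 2 high libraries were also the 2 with the most Zbtb16. Naive KO cells went the other way, with the most Ccl5 (452 CPM) and the least Zbtb16 (5.16 CPM) in replicate 3. In KO memory libraries Ccl5 was at 851 to 1039 CPM and Zbtb16 at 0.141 to 0.820. Il4 had no read, so the cytokine of this state was not measurable in these libraries.

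**Figure D4:**
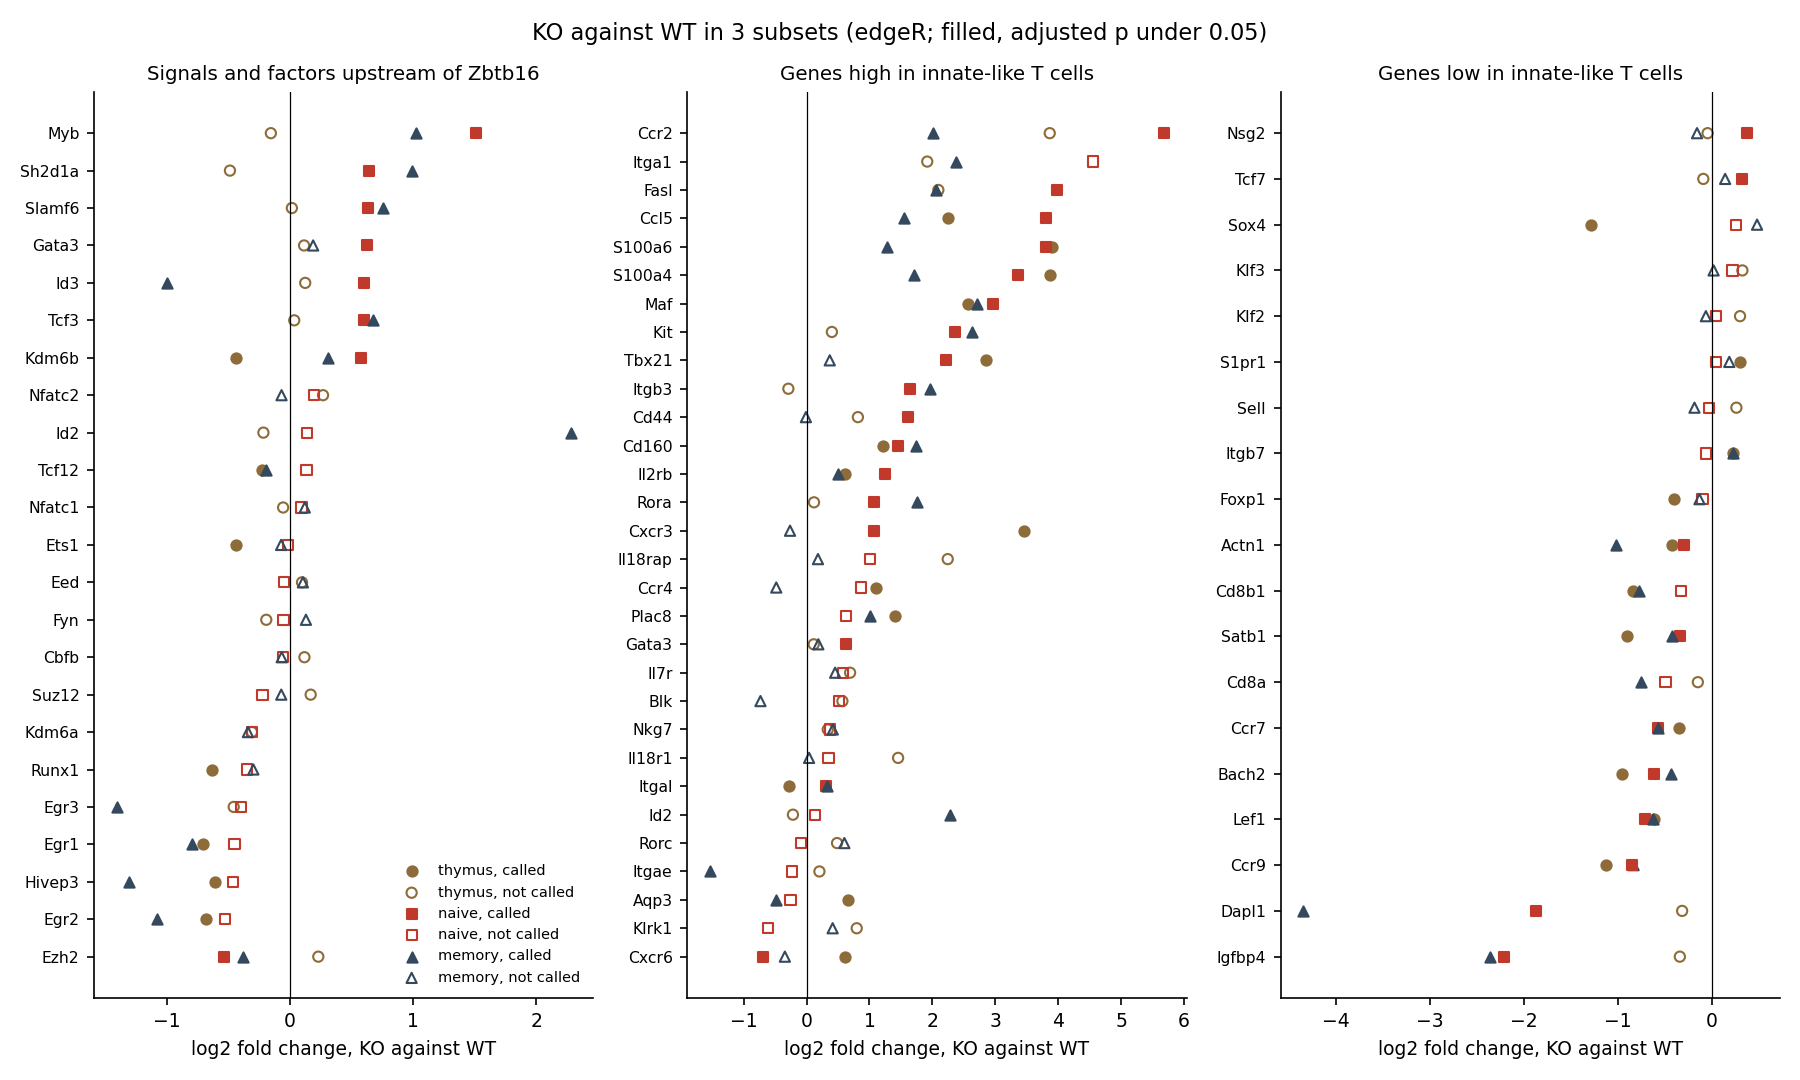
Log2 fold change of KO against WT (horizontal axes, linear) for each tested gene of 3 lists, in thymus (circles), naive (squares) and memory cells (triangles), filled where adjusted p was under 0.05. Genes high in innate-like cells lie mostly to the right of 0 in all 3 subsets, with 12, 16 and 15 called higher, and genes low in such cells mostly to the left, with 9, 8 and 9 called lower.

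Markers of the cells that normally carry PLZF were scarce in every group. Of 8 markers of invariant natural killer T and MAIT cells, 4 had no read in any library, among them the receptor segments Trav11 and Traj18, and the summed level of the 8 never exceeded 0.874 CPM. That sum ran from 0.427 to 0.688 CPM in KO thymus and from 0.172 to 0.799 in WT thymus. Of 13 gamma delta markers 4 had no read in any library, Trdc among them, and the sums were 0.551 to 3.27 CPM in KO thymus against 0.799 to 1.57 in WT, and 0.591 to 5.63 in KO naive against 0.217 to 4.83 in WT naive cells. These thymic and naive sums overlapped between genotypes. The gamma delta marker Sox13 alone was at 0.138, 2.05, 2.27 and 2.55 CPM in KO thymus, in replicate order, against 0.604 to 0.988 in WT thymus. The part of such cells in the Zbtb16 level was not tested. In memory cells the gamma delta sum was lower in KO, at 0.238 to 1.30 CPM against 1.94 to 5.16 in WT, with no overlap. Cd163l1, 1 of those 13 genes, alone stood at 0.141 to 0.342 CPM in KO memory and 1.79 to 3.73 in WT memory libraries. Only 3 of the 13 were tested, and 1 (33.3%) was called lower there, against 9.32% of all genes. The sum is thus not a measure of the number of such cells. A marker at 0 cannot be read as absent here, because some abundant transcripts had few counts in this table: Cd8a held 3220 reads in all and Lck 356689.

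Other marker lists moved in part with the KO label, and their part in the Zbtb16 level was not tested. Double positive thymocyte genes summed to 24.8 to 39.2 CPM in KO thymus against 17.4 to 25.3 in WT, with 10 of 10 genes detected. In naive cells their sum was 2.90 to 5.48 CPM in KO against 0.650 to 2.65 in WT, with no overlap. The sum of 7 CD4 T cell genes did not overlap in thymus, at 6.40 to 8.44 CPM in KO against 12.3 to 15.05 in WT, nor in memory cells, where KO was the higher at 16.5 to 26.4 against 8.96 to 14.5. Zbtb7b is 1 of those 7 genes and alone stood at 13.4 to 24.8 CPM in KO memory cells. B cell genes summed to 15.4 to 26.3 CPM in KO thymus against 7.73 to 17.3 in WT, and to 13.03 to 261 in KO naive against 15.2 to 113 in WT naive cells. The sum of natural killer and innate lymphoid genes was 50.4 to 65.1 CPM in KO thymus against 15.1 to 19.1 in WT and 119 to 183 in KO naive against 45.9 to 67.8 in WT naive cells, and in memory cells 276 to 357 against 167 to 194. Eomes, which CD8 T cells also express, makes up most of that sum in the KO libraries. Myeloid genes summed to at most 1.51 CPM in any thymic library. The CD8 T cell list was detected with 10 of 10 genes in every group, at 1275 to 1845 CPM, and its thymic sum was 1465 to 1512 in KO against 1581 to 1837 in WT.

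Of 12 protein-coding genes within 500 kb of Zbtb16, only Rexo2, Rbm7, Usp28 and Zw10 had enough reads to be tested. Nnmt and Htr3a, close neighbours in the annotation, had none. No tested neighbour was called higher in both thymus and naive KO cells. Of all genes, 11.9% were called higher in thymus and 11.1% in naive cells, and so few tested neighbours cannot be told from these shares. Rexo2, an exonuclease gene, rose in thymus by 0.51 ± 0.08 and fell in memory cells by 0.22 ± 0.07 (adjusted p = 0.0248, and 0.0877 without KO replicate 4), with -0.05 ± 0.07 in naive cells (adjusted p = 0.750). Usp28, a deubiquitinase gene, fell in naive cells by 0.63 ± 0.11 and in memory cells by 1.09 ± 0.11, with 0.02 ± 0.12 in thymus (adjusted p = 0.934). Rbm7 and Zw10 were not called in any subset, with log2 differences from 0.13 to 0.47.

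Likeness to Zbtb16 was measured as Pearson's r of log2 CPM over the 35 libraries, which share groups, for 7819 genes whose log2 CPM averaged 1 or more. The median r was -0.01, 5 genes exceeded 0.8 and 0 exceeded 0.9. Among the 10 highest were Spock2 (0.841), Ppm1e (0.818), Pfn2 (0.808), Dst (0.807), Vat1 (0.786), Zfand5 (0.776), Ldlrad4 (0.769), Wdr26 (0.767) and Furin (0.763). The 5 lowest were Lpxn (-0.822), Gpr174 (-0.806), Ppp2r5c (-0.777), Zfp654 (-0.773) and Crbn (-0.752). Libraries of a group share its mean, so these values rest on 9 groups more than on 35 separate points.

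Spock2, a proteoglycan gene, rose in thymus by 2.76 ± 0.19, in naive cells by 3.82 ± 0.19 and in memory cells by 2.54 ± 0.18. Its KO memory level (23.4 ± 4.34 CPM) was lower than in KO naive cells (52.7 ± 4.58). Of the 10 highest genes 3 remained among the 10 highest with rank correlation and 3 with the 24 spleen libraries alone.

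Within groups, over the deviations of libraries from their group means, the highest values were for Usp33 (0.751), Zfp750 (0.607), Prpf38b (0.585), Ppp2r5b (0.578) and Ing3 (0.567). Spock2 had 0.15 on this measure. None of these 5 genes was among the 10 highest over the 35 libraries. They are the highest of 7819 genes, and 27 of the 35 libraries held 0 to 12 Zbtb16 reads. Deviations of Zbtb16 there carry wide counting error.

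**Figure D5:**
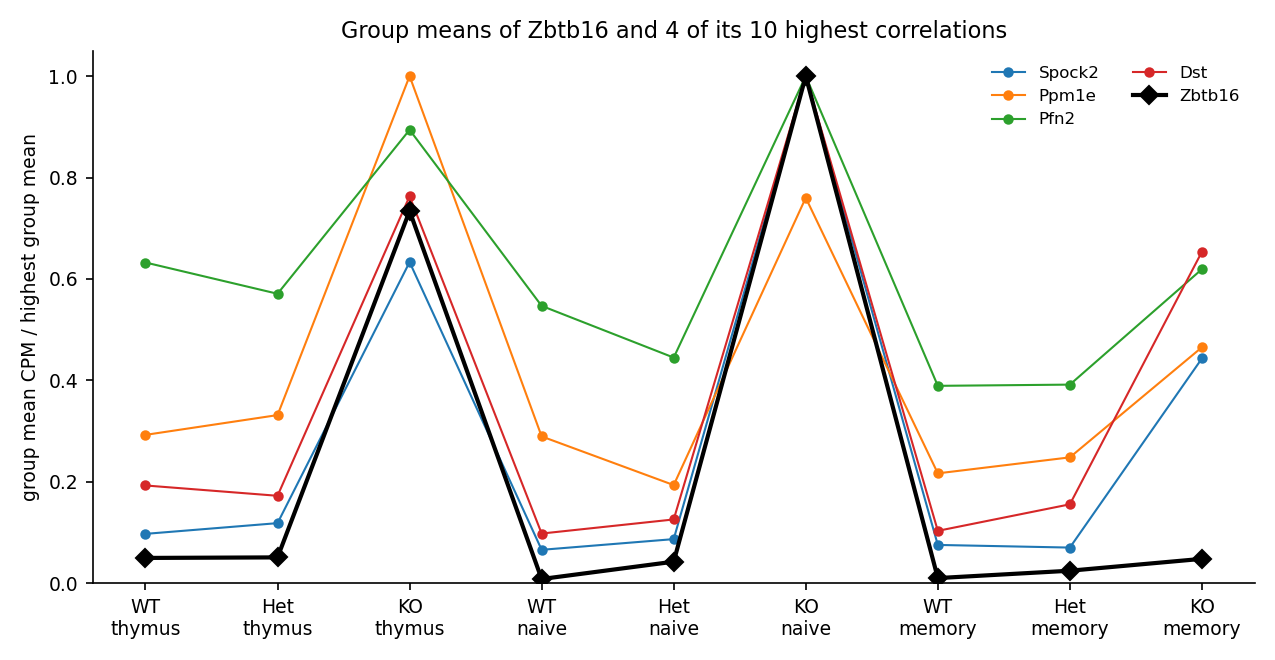
Group mean CPM divided by the highest group mean (linear axis from 0) for Zbtb16 (black diamonds) and for Spock2, Ppm1e, Pfn2 and Dst, which are among its 10 highest correlations over the 35 libraries. Each of them peaks in KO naive or KO thymus, and in KO memory cells Zbtb16 lies near 0 on this scale, while the other 4 genes lie well above it.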

How the data were processed

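The authors deposited 1 table of raw counts, the number of reads on each Ensembl gene. Per the labels' protocols, RNA was extracted with Trizol and stranded mRNA libraries were read as single reads. The submitters' processing notes name TopHat2 2.1.0 and HTSeq 0.9.1 with GRCm38 (mm10). Neither the annotation nor the strand setting behind the counts is given in the sources used here. GENCODE M21 named 52403 of 52636 identifiers. Depth was 4809509 to 16879636 counts per library, which leaves wide counting error for genes with a few reads.

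Counts were tested in R 4.3.3 with edgeR 4.0.16 (limma 3.58.1): filterByExpr, TMM scaling (factors 0.927 to 1.07), and 1 robust quasi-likelihood fit over the 35 libraries with a mean for each of 9 groups (26 residual degrees of freedom). The p-values, which are two-sided, were adjusted by Benjamini-Hochberg over the 10296 genes tested, and genes under 0.05 were called. CPM and RPKM used the TMM scaling. The test was tried on simulated data. No 2 libraries of a group looked alike within sampling noise (51 pairs, lowest chi-square per gene 4.07).

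Zbtb16, the gene lists and the comparisons were chosen with earlier results of these data known. Beside Zbtb16, the genes named are those with the lowest adjusted p in each list (up to 4 per subset, called in KO against WT), a set of role-defining genes, protein-coding genes within 500 kb, and by likeness the 10 highest, the 5 lowest and the 5 highest within groups (prior count 2), of which 1 gene is not reported here. Levels of a few other genes that set single libraries apart, markers among them, were named after their values were seen. Summed markers are CPM.

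Replicate numbers recur across groups. Correlations of deviations between equally numbered libraries exceeded 0.1 for every pair in KO against Het naive (0.182 to 0.410), memory against naive in WT (0.302 to 0.449) and KO (0.177 to 0.480), and naive against thymus in KO (0.138 to 0.419). The labels do not give such a pairing. Main tests and permutations left it out, and a replicate block was fitted only as an alternative. Alternatives were RLE scaling, centring on the mean log level, no filter, a filter at 1 CPM in 4 libraries, estimates without the robust option, the libraries compared alone, a sex covariate, the replicate block, DESeq2 1.42.0 and each library left out.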

Additional observations from a re-analysis of the deposited data

Results flagged for a closer look

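In 1 of 80 groups of 4 libraries examined over 10 genes, a library lay far from the others by Dixon's ratio, where chance gives about 1 in 20. Slamf6 in KO thymus replicate 2 was at 4.61 CPM, the lowest, against 5.09 to 5.15 in the other 3, a narrow range for its 4 libraries.

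The response to the KO genotype differed between memory and naive cells for Id2 and Id3, both tested by an interaction term in edgeR. Id2 rose more in memory than in naive cells, by 2.14 on the log2 scale (adjusted p = 3.53e-06), and all 4 KO memory libraries exceeded all WT memory libraries. Id3 moved the other way, with a difference of -1.60 (adjusted p = 0.00144).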

How the results depend on the processing

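Of 270 Zbtb16 values under other settings, 257 kept their direction and their side of the threshold or moved by less than the spread between libraries. The other 13 belong to contrasts of groups near the floor or to descriptions in thymus, and for these the cause was not tested. KO against WT in thymus ran from 3.71 to 5.24 with 1 library left out. Under the same alternatives Het against WT ran from -0.42 to 1.35 in thymus and from -0.19 to 1.74 in memory cells. Naive against thymus ran from -2.81 to -0.84 in WT and from -0.64 to 0.43 in Het libraries. Memory against naive in WT libraries ran from -0.52 to 0.90, and turned sign to 0.0217 without a filter and to 0.0209 with DESeq2. With the replicate block it was 0.000348. The block left naive KO against WT at 6.50 (adjusted p = 2.25e-08) and memory against naive in KO at -4.19 (adjusted p = 1.00e-07), and changed no other Zbtb16 call. Of the 10 genes most like Zbtb16, 3 remained with Spearman's rank correlation, 3 with the spleen libraries alone and 7 to 10 with 1 library left out.

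Of 2131 values of the named genes, 2007 were the same, 117 no longer passed, 7 newly passed and 0 turned direction. Of 600 list counts, 101 moved by over 1.5 times. Over all genes, 1919, 1879 and 2283 were called in thymus, naive and memory cells. Centring gave 886 higher and 1342 lower in thymus, 886 and 1612 in naive, and 1019 and 1812 in memory cells, against 1222 and 697, 1147 and 732, and 1323 and 960 with TMM. The fit on the compared libraries alone gave no value for Zbtb16 where it missed the filter there.

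Depth limits the low groups. The WT naive and WT memory groups held 3 and 4 Zbtb16 reads, so fold changes against them have wide errors. Genes of the innate-like list with too few reads were not tested.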
